A study of Homo sapiens with 197 samples.

Results

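PGK1, TBP and TUBB2A are the 3 genes whose counts the study used to bring its Nanostring lanes to a common level, and their behavior was examined here in lanes that they had not yet normalized. They are 3 of the 61 endogenous and housekeeping probes of the panel, and were chosen by name, not by their values. Their raw counts were scaled only by the positive controls POS_A to POS_F, which are spiked into each lane. They were then set against each other as log2 ratios within a lane. Any factor that acts alike on all probes of a lane, such as the scaling by positive controls, cancels in these ratios. Their relation to measures of the amount of RNA is described further on. The HK1 well, in which PGK1, TBP and TUBB2A had 1, 1 and 2 raw counts, was left out.

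The lanes hold RNA from IMR90 cells, human fetal lung fibroblasts, collected 4 days after infection with retroviruses that each encode 1 activated kinase carrying a myristoylation signal and a Flag tag. After leaving out HK1 and the second lanes described further on, the kinase wells, each with a different kinase and 1 lane, comprised 25 wells of metabolic kinases, 10 of the AKT family, 23 of cell cycle kinases, 5 of NF-kappaB pathway kinases and 120 others. They were compared with 2 IMR90 control wells, which the labels give as empty vector. The study also speaks of non-infected IMR90 cells, and whether these wells were infected is not settled here, so a difference between kinase wells and controls may include that of infection itself. The positive controls of the study were 2 lanes of SW39, a transformed derivative of IMR90 that is also labelled empty vector, and 6 lanes of 1 mixed RNA from human cancer cell lines, which the labels call human reference. The labels of SW39 and of the mixed RNA also carry the IMR90 line and the kinase collection, and no time for them was used. The panel holds no set of fibroblast markers, so the labelled cell type was not checked. All groups share the same probes, and no source used here says whether the 2 control wells or the 2 SW39 lanes came from separate cultures, so p-values measure only the spread between these lanes.

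Phosphoglycerate kinase 1 (PGK1) is the glycolytic enzyme that makes ATP from 1,3-bisphosphoglycerate, and its gene is a known target of hypoxia-inducible factors. The TATA-binding protein (TBP) is a subunit of the general factor TFIID and takes part in transcription by all nuclear RNA polymerases. TUBB2A encodes a beta-tubulin, a building block of microtubules, and has a close relative in TUBB2B. Whether the probe also counts TUBB2B was not tested, since its sequence was not used here. Such genes serve as normalizers because they are needed in most cells. Where their ratio to each other changes, the geometric mean depends on which of them are in it. A constant ratio does not by itself show that they follow the amount of RNA.

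The sequences of the probes are not in the files used here. The promoters of the 3 genes are shown because the genes moved together or apart between cell types, as described further on. They run from 250 bases before to 50 bases after the start, and are given 5′ to 3′ on the strand of the gene, from RefSeq on GRCh38.p14. PGK1 lies at chrX:78103998-78104297 on the plus strand, TBP at chr6:170554119-170554418 on the plus strand and TUBB2A at chr6:3157495-3157794 on the minus strand. Capitals mark, on either strand, the TATA box written as TATAAA, the CCAAT box, the GC box written as GGGCGG and the core of the hypoxia response element written as ACGTG.
PGK1: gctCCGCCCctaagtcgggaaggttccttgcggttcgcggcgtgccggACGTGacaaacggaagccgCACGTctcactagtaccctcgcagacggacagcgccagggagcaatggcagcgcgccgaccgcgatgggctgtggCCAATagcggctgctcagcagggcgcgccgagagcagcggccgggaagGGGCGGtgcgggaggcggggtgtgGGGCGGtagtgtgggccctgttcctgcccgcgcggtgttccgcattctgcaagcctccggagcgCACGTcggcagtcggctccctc
TBP: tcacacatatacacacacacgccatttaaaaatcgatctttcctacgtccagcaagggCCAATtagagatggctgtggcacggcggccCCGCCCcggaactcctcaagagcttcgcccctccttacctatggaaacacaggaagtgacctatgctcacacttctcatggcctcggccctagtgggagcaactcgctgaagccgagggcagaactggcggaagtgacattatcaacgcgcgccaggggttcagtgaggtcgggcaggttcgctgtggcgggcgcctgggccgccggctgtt
TUBB2A: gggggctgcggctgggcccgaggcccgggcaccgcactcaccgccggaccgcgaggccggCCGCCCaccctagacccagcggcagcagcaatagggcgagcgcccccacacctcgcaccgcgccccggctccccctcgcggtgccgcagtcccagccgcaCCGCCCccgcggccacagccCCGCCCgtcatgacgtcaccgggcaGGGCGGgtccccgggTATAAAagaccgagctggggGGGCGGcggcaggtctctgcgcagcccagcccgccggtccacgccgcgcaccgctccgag

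The 3 windows differ in these letters. That of TUBB2A holds the TATA box, 30 bases before the start, and the GC box at 5 places. That of PGK1 holds ACGTG at 3 places, the GC box at 3 places and the CCAAT box at 1 place. That of TBP holds the CCAAT box and the GC box at 1 place each. None of the marked matches overlap. Of 27305 promoter windows of the same length in the table, 11.95% hold the TATA box, 35.7% the CCAAT box, 44.6% the GC box and 21.6% ACGTG. These matches are a description of the windows and say nothing of whether a factor binds there.

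The total count of a lane ranged from 29629 to 340763 over the kinase wells, with a median of 159350. Counting error was small for PGK1 and TUBB2A, with median raw counts of 9528 and 4221, and larger for TBP, with a median of 438 and a lowest count of 84. A few names occur in a second lane: PTK2, PIK3CG and IMR90 control 2. The titles of those lanes hold the sample numbers 4, 3 and 1, which belong to AKT1, PLK1 and IMR90 control 1. In the ratio of each normalizer to the other two, these second lanes differed from the lane of the same number by 0.00464 to 0.142 on the log2 scale (median of 0.0668 over 9 differences), and from the lane of the same name by 0.0632 to 0.562 (median of 0.250). The PTK2 pair differed most, with TUBB2A relative to the other two lower by 0.56 in the second lane than in the first. The second lanes were therefore left out, and summing the lanes of one name changed no call on PGK1, TBP or TUBB2A.

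In the IMR90 controls, the level of each of the 3 genes was close between the wells. The scaled counts of PGK1 were 7767 in control 1 and 7559 in control 2. Those of TBP were 331 and 340, and those of TUBB2A were 3211 and 3227. The ratio of PGK1 to TBP counts was thus 23.4 and 22.2, that of PGK1 to TUBB2A 2.42 and 2.34, and that of TUBB2A to TBP 9.67 and 9.47. Ratios between different probes also reflect how well each probe captures its target, so they are compared here between lanes and not read as ratios of mRNA.

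In SW39, TUBB2A fell relative to PGK1 and TBP. The scaled counts of PGK1 were 15740 and 16875 in SW39 lanes 1 and 2, and those of TBP were 809 and 953. Those of TUBB2A were 2854 and 2985. Both SW39 lanes lay above both controls for PGK1 and TBP and below both controls for TUBB2A. On this scale, higher SW39 lanes without overlap were common, at 77% of the 61 probes, whereas lower ones were found for 3.28%, that is 2 probes, of which TUBB2A was one. The scale depends on the amount of RNA and on the positive controls of a lane, which shift all its probes together. Raw counts in SW39 lanes 1 and 2 were 14606 and 15704 for PGK1, 751 and 887 for TBP, and 2648 and 2778 for TUBB2A. In controls 1 and 2 they were 10411 and 9674, 444 and 435, and 4304 and 4130.

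The levels on the scale of the positive controls were tested with edgeR. PGK1 was higher in SW39 than in the controls by 1.09 on the log2 scale (SE of 0.15, edgeR adjusted p = 0.00114), and TBP by 1.39 (SE of 0.19, edgeR adjusted p = 0.00115). TUBB2A differed by -0.14, which did not pass the test (SE of 0.17, edgeR adjusted p = 0.489). In this fit 32.8% of the probes were called. With either control left out, the fit called 0 of 61 probes, so that it could keep no call, and the differences were 1.07 and 1.11 for PGK1 and 1.37 and 1.41 for TBP (edgeR adjusted p between 0.0649 and 0.162). Such a fit has 1 lane in a group, which is assumed to vary like the lanes of the other group.

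Relative to the other two, all 3 genes changed in SW39. TUBB2A was lower by 1.38 on the log2 scale relative to PGK1 and TBP, that is 2.60-fold (SE of 0.11, edgeR adjusted p = 0.000175), in a fit that called 23% of the probes. TBP was higher by 0.92 relative to PGK1 and TUBB2A (SE of 0.13, edgeR adjusted p = 0.00703), in a fit that called 19.7%. PGK1 was higher by 0.47 relative to TBP and TUBB2A (SE of 0.09, edgeR adjusted p = 0.0212), in a fit that called 21.3%. The 3 values are not independent, since each gene is in the reference of the others. They correspond to a count ratio of TUBB2A to TBP of 3.52 and 3.13 in the SW39 lanes, against 9.67 and 9.47 in the controls, and of PGK1 to TUBB2A of 5.51 and 5.65, against 2.42 and 2.34. The ratio of PGK1 to TBP moved least, to 19.4 and 17.7 from 23.4 and 22.2. In such bulk RNA, fewer cells of a type and less RNA per cell cannot be told apart.

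SW39 lane 1 and control 1 both lie among the first 12 sample numbers, and lane 2 and control 2 among the next 12. Within these pairs TUBB2A differed by -1.32 and -1.43. The change of TUBB2A was called under all 12 alternatives, with values from -1.43 to -0.98. That of TBP was 0.89 without control 1 (edgeR adjusted p = 0.0691) and 0.94 without control 2 (0.0604), so the call was lost but the size was kept. With TMM factors it was 0.38 and still called (edgeR adjusted p = 0.0240). That of PGK1 was 0.44 without SW39 lane 1 (edgeR adjusted p = 0.213) and 0.49 without lane 2 (0.198), again with the call lost and the size kept. With TMM factors it was 0.08 and not called (edgeR adjusted p = 0.864). B2M, the light chain of MHC class I molecules and the housekeeping probe that the study left out of its normalization, had scaled counts of 27131 and 33601 in SW39 lanes 1 and 2, and of 26474 and 32551 in the controls.

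**Figure D1:**
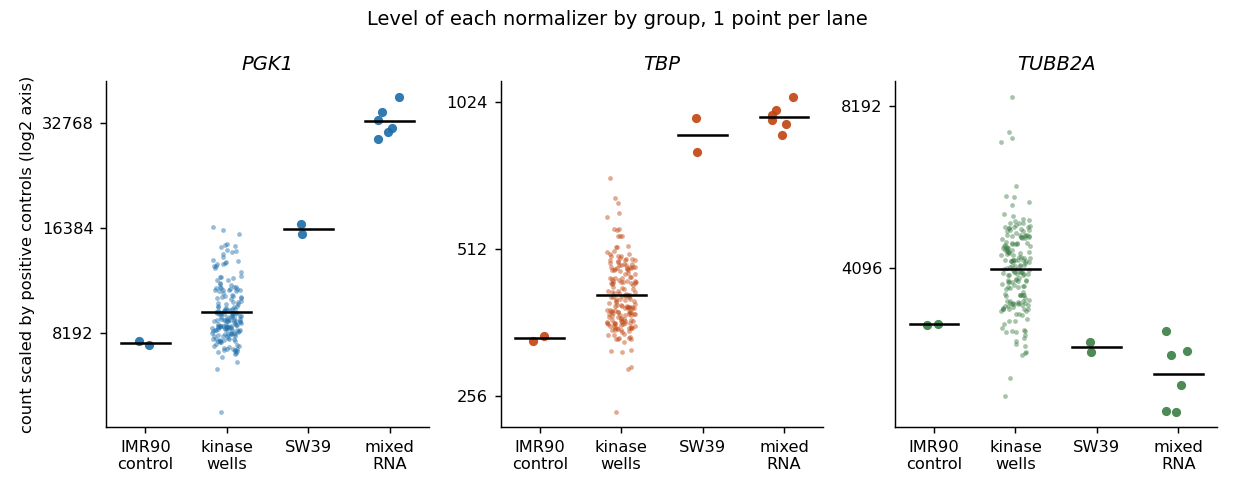
Count of PGK1, TBP and TUBB2A scaled by the positive controls, on log2 axes that differ between panels, with 1 point per lane and the geometric mean as a line, in 2 IMR90 controls, the kinase wells, 2 SW39 lanes and 6 lanes of mixed RNA. PGK1 and TBP sit higher in SW39 and the mixed RNA than in the controls, and TUBB2A sits lower.

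In the mixed RNA, TUBB2A was lower relative to the other two than in SW39, PGK1 was higher, and TBP lay between SW39 and the controls. It is given without a test because its lanes are repeats of 1 RNA. The scaled counts of PGK1 ranged from 29440 to 38955 over the 6 lanes (median of 32581), those of TBP from 878 to 1052 (median of 954) and those of TUBB2A from 2215 to 3125 (median of 2656). All 6 lanes lay above both controls for PGK1 and TBP and below both for TUBB2A. Among the 61 probes, 90.2% were higher in all 6 lanes and 3.28% were lower, on this scale, which depends on the amount of RNA. The mean count ratio of PGK1 to TUBB2A was 12.8 ± 1.14 (SD, n = 6), that of PGK1 to TBP 34.6 ± 2.23 and that of TUBB2A to TBP 2.73 ± 0.34. Relative to the other two, TUBB2A was 4.34-fold lower than in the controls, PGK1 2.85-fold higher and TBP 1.52-fold higher, against 1.88-fold for TBP in SW39. The log2 ratio of PGK1 to TBP differed from the controls by 0.60 in the mixed RNA and by -0.30 in SW39, that is in opposite directions. The lanes of the mixed RNA lie in the last stretch of sample numbers and the controls in the first, so the RNA and its place in the series cannot be told apart.

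The order of the groups was thus not the same for the 3 genes. For PGK1 the order from low to high was controls, kinase wells, SW39 and mixed RNA, and the highest kinase well, at 16475, overlapped with the SW39 lanes. For TBP the order was the same, and the SW39 lanes overlapped with the lower end of the mixed RNA. For TUBB2A the order from low to high was mixed RNA, SW39, controls and kinase wells. There the SW39 lanes overlapped with the mixed RNA, and the kinase wells spanned the values of the controls and of SW39.

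Across the kinase wells, the 3 levels moved together. PGK1 ranged from 4878 to 16475 scaled counts (median of 9008), TBP from 237 to 718 (median of 404) and TUBB2A from 2366 to 8504 (median of 4084). The highest well was thus 3.38 times the lowest for PGK1, 3.02 times for TBP and 3.59 times for TUBB2A. B2M spanned a wider range, of 7.43 times. The log2 levels of PGK1 and TBP correlated with Pearson's r of 0.73 over the kinase wells, those of PGK1 and TUBB2A with 0.72 and those of TUBB2A and TBP with 0.69. These correlations describe lanes that also share their amount of RNA and their positive-control factor. Among the 17 probes with a median of at least 100 counts, Tet3 was the most like TBP (r = 0.85) and TUBB2A (r = 0.73), and B2M the most like PGK1 (r = 0.80). The next most like were Tet3 and TBP for PGK1 (r = 0.79 and 0.73), ITPR2 and ALAS1 for TBP (r = 0.80 and 0.78) and PGK1 and TBP for TUBB2A (r = 0.72 and 0.69).

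Between the kinase wells and the controls, no difference of PGK1, TBP or TUBB2A passed the test on the scale of the positive controls. The difference was 0.32 for PGK1 (SE of 0.22, edgeR adjusted p = 0.219), 0.31 for TBP (SE of 0.17, edgeR adjusted p = 0.161) and 0.36 for TUBB2A (SE of 0.21, edgeR adjusted p = 0.161). Of all probes 1.64% was called in this fit, whereas 22 of 61 had an unadjusted p under 0.05. Of the kinase wells, 87.4% lay above both controls for PGK1, 92.9% for TBP and 90.7% for TUBB2A. This scale depends on the amount of RNA in the lane. Relative to the other two, the differences were -0.01 for PGK1, -0.01 for TBP and 0.05 for TUBB2A (SE of 0.12 to 0.13, edgeR adjusted p between 0.786 and 0.958). In each of these 3 fits 1.64% of the probes was called, none of the 3 genes had an unadjusted p under 0.05, and DESeq2 and limma called none of them either. The 95% interval by the normal approximation was -0.27 to 0.24 for PGK1, -0.24 to 0.22 for TBP and -0.20 to 0.31 for TUBB2A. Both controls lie among the first 24 sample numbers. With blocks of 12 sample numbers as a covariate, the difference was 0.19 for TUBB2A (SE of 0.10, edgeR adjusted p = 0.517), -0.10 for TBP (SE of 0.10, edgeR adjusted p = 0.727) and -0.07 for PGK1 (SE of 0.11, edgeR adjusted p = 0.856).

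The ratios between normalizers varied more from well to well than counting error gives. The SD of the log2 ratio over the kinase wells was 0.19 for PGK1 to TBP, 0.21 for PGK1 to TUBB2A and 0.20 for TUBB2A to TBP. The SD from counting error alone was 0.075, 0.028 and 0.077. In the 6 lanes of mixed RNA, where 1 RNA was measured repeatedly, the SD was 0.096 for PGK1 to TBP, 0.14 for PGK1 to TUBB2A and 0.18 for TUBB2A to TBP. The spread of TUBB2A to TBP over different kinases was therefore close to that over repeats of 1 RNA. Those of PGK1 to TBP and of PGK1 to TUBB2A were larger. The SD over repeats rests on 6 lanes only. The ratio of PGK1 to TBP counts ranged from 17.1 to 33.4 over the kinase wells, that of PGK1 to TUBB2A from 1.54 to 3.50 and that of TUBB2A to TBP from 6.88 to 17.6.

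The wells in which one normalizer stood apart were counted by their departure. For each gene, the departure of a well is its log2 level minus the mean of the other two, minus the mean of this value over the kinase wells. The 3 departures of a well cancel in sum, so they are not independent. The SD of the departure was 0.17 for PGK1, 0.17 for TBP and 0.18 for TUBB2A. The study also used a limit of 2.5 SD, but only above the mean, for normalized counts of its genes over all samples. Beyond 2.5 SD to either side, there were 2 wells for PGK1, 2 for TBP and 3 for TUBB2A. These were 6 different wells, since MAP3K14 counted for both TBP and TUBB2A. After centering on blocks of sample numbers, described further on, the counts were 4, 4 and 7. With 1 lane per kinase no well has a replicate, so a departure is a description of that lane.

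The MAP3K14 well, with the NF-kappaB-inducing kinase of the noncanonical NF-kappaB pathway, had the lowest TBP of all wells relative to the other two. Its scaled counts were 16170 for PGK1, 483 for TBP and 8504 for TUBB2A, the last being the highest TUBB2A level of the kinase wells. TBP departed by -0.69 (4.16 SD below the mean, counting error of 0.08) and TUBB2A by 0.56 (3.15 SD above). PGK1 departed by 0.14. The count ratio of TUBB2A to TBP was 17.6, against 9.57 on average in the controls. The level of TBP itself was above the median of the kinase wells, so that TBP was low only relative to the other two.

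The TBK1 well, with a kinase of innate antiviral signaling, differed in TUBB2A alone. Its scaled counts were 8368 for PGK1, 376 for TBP and 5434 for TUBB2A. TUBB2A departed by 0.57 (3.2 SD above the mean, counting error of 0.04), the highest value of all wells, while the log2 ratio of PGK1 to TBP was 0.19 SD below its mean. The PRKCD well, with the delta isoform of protein kinase C, had the lowest TUBB2A relative to the other two. There TUBB2A departed by -0.56 (3.15 SD below the mean), and the ratio of PGK1 to TBP was 0.42 SD above its mean. PGK1 stood apart upward in the wells of BLK, a kinase of the Src family, at 0.51 (2.94 SD), and of MAPK12, a p38 kinase, at 0.47 (2.70 SD). TBP stood apart upward in AAK1, a kinase of clathrin-mediated endocytosis, at 0.42 (2.51 SD). In these 3 wells the log2 ratio of the other two was within 0.38 SD of its mean.

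The limit of 2.5 SD fell close to several wells. AAK1 was just beyond it for TBP, and PLK2, at 2.41 SD, just short of it. For PGK1 the nearest well beyond it was MAPK12 and the nearest short of it CDK4, at 2.48 SD. For TUBB2A the nearest well beyond it was MAP3K14 and the nearest short of it DGUOK, at 2.28 SD. With the median and the scaled median absolute deviation in place of mean and SD, 7 wells were beyond the limit for PGK1, 13 for TBP and 3 for TUBB2A.

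The next wells in order were as follows. For PGK1, the highest departures after BLK and MAPK12 were those of CDK4 (0.43), STK32C (0.41) and HK3 (0.41), and the lowest were those of PRKAR2A (-0.32), TBK1 (-0.31), EPHA4 (-0.30), TSSK1B (-0.30) and STK4 (-0.25). For TBP, the highest after AAK1 were PLK2 (0.40), PFKM (0.38), FRK (0.36) and VRK3 (0.36). The lowest after MAP3K14 were FGFR1 (-0.39), MAP3K7 (-0.37), TNK2 (-0.35) and IKBKE (-0.34). For TUBB2A, the highest after TBK1 and MAP3K14 were DGUOK (0.40), CSNK1E (0.33) and PRKACB (0.31), and the lowest after PRKCD were CDK4 (-0.38), MOBKL2A (-0.34), PDIK1L (-0.32) and MAP3K8 (-0.29). The distribution of PGK1 was thus drawn out on the high side, and its lowest well had a Z-score of -1.86.

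**Figure D2:**
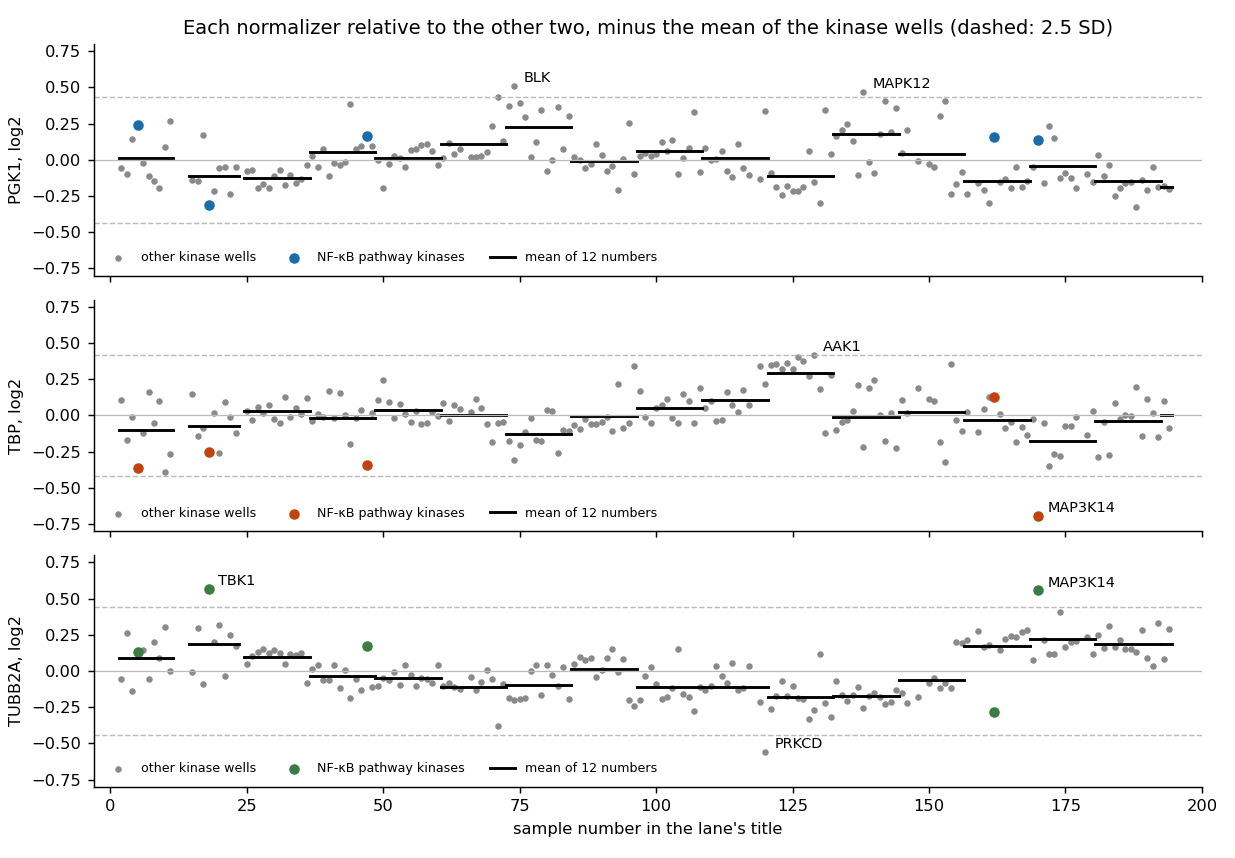
Departure of PGK1, TBP and TUBB2A from the other two in each kinase well, in log2 units minus the mean of the wells, against the sample number in the title. Colored points are the 5 NF-kappaB pathway kinases, black lines the means of blocks of 12 numbers and dashed lines the limits of 2.5 SD, with the wells beyond them named. TUBB2A steps down after the first 3 blocks and up again for the last 4.

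The departures also followed the sample numbers. Sample numbers were cut into 17 blocks of 12, a division of this work, since no source used here says which lanes were run together. Between blocks lay 40.8% of the variance of the departure of PGK1, 38.1% of that of TBP and 56.5% of that of TUBB2A. For PGK1 the block means ranged from -0.19 in block 17 to 0.23 in block 7, for TBP from -0.17 in block 15 to 0.29 in block 11, and for TUBB2A from -0.18 in block 11 to 0.22 in block 15. The 5 wells with the highest TBP, AAK1, PLK2, PFKM, FRK and VRK3, all belonged to block 11.

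TUBB2A showed the clearest course along the numbers. In blocks 14 to 17 it was above the mean in 35 of 36 wells, with a mean departure of 0.19 ± 0.13 (SD, n = 36 wells). In blocks 4 to 13 it was above the mean in 24.1% of the wells, with -0.09 ± 0.12. In blocks 1 to 3 it was above the mean in 23 of 31 wells, with 0.12 ± 0.15. These 3 ranges were set after the course had been seen. PGK1 took the opposite course, above the mean in 5 of 31 wells of blocks 1 to 3, in 62.1% of those of blocks 4 to 13 and in 5 of 36 of blocks 14 to 17. This is in part fixed by the definition, since the departures of a well cancel in sum. Each kinase lies in 1 block only, so for a single well the kinase and the block cannot be told apart.

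Centered on the median of its block, the SD of the log2 ratio fell to 0.16 for PGK1 to TBP, 0.15 for PGK1 to TUBB2A and 0.14 for TUBB2A to TBP. MAP3K14 remained beyond 2.5 SD, at 4.53 SD below for TBP and 2.97 SD above for TUBB2A, as did TBK1 at 3.05 SD and PRKCD at 3.8 SD below for TUBB2A. BLK, MAPK12 and AAK1 did not, at 1.43, 1.93 and 0.67 SD. The kinase MAP3K8, which was 1.61 SD below the mean in TUBB2A, was 4.21 SD below after centering. Others also passed the limit only after centering. The MAST1 well was 3.69 SD above for PGK1 and 3.31 SD below for TBP, and HK3 was 2.96 SD above for PGK1 and 2.74 SD below for TBP. For PGK1 these were joined by CDK4 above and AURKA below, for TBP by CSNK1A1L above, and for TUBB2A by TSSK1B and PCTK2 above and CSNK1A1L below.

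The metabolic, AKT and cell cycle families were set against all other kinase wells. The metabolic kinases comprise 25 wells of enzymes of glycolysis and sugar, nucleotide, creatine and cofactor metabolism, and are of interest because PGK1 is a glycolytic enzyme itself. The AKT family comprises 10 wells of AKT, PDPK1, SGK and the ribosomal S6 kinases, which act in growth signaling. The cell cycle kinases comprise 23 wells of cyclin-dependent and mitotic kinases, and are of interest because TUBB2A is a tubulin.

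No departure of a normalizer passed the test in any of these families. In the metabolic wells, the departure of PGK1 ranged from -0.20 to 0.41 (mean of 0.01 ± 0.18, SD, n = 25 wells), with 12 wells above the mean of the kinase wells and 13 below. The difference from the other wells was 0.02 for PGK1 (edgeR adjusted p = 0.924), -0.02 for TBP (0.931) and 0.00 for TUBB2A (0.991). The fits for the metabolic wells called 0% of the probes, and none had an unadjusted p under 0.05 in edgeR. DESeq2 and limma also called 0. The 11 wells of glycolysis and sugar kinases alone gave 0.04 for PGK1 (SE of 0.06, edgeR adjusted p = 0.984). Single wells of the family stood out nonetheless, HK3 among the 5 highest for PGK1 and PFKM among the 5 highest for TBP.

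In the AKT family, the departures were spread on both sides of the mean in each gene. For PGK1 the wells were, from low to high, RPSK6A3 (-0.21), RPS6KB1 (-0.11), RPS6KA6 (-0.11), SGK (-0.05), RPS6KA5 (0.02), RPS6KB2 (0.02), RPS6KA2 (0.02), RPS6KL1 (0.08), AKT1 (0.15) and PDPK1 (0.27). For TBP, PDPK1 was lowest at -0.27 and RPS6KB1 highest at 0.16, and 7 of 10 wells were above the mean. For TUBB2A, AKT1 was lowest at -0.14 and RPSK6A3 highest at 0.16, and 7 of 10 wells were below the mean. The differences from the other wells were 0.00 for PGK1 (edgeR adjusted p = 0.996), 0.02 for TBP (0.984) and -0.04 for TUBB2A (0.909). The fits for the AKT family called 0% of the probes, with 1 to 3 at an unadjusted p under 0.05 in edgeR, and DESeq2 and limma called 0 as well.

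In the cell cycle wells, the departure of TUBB2A ranged from -0.38 in CDK4 to 0.26 (mean of 0.02 ± 0.16, SD, n = 23 wells), with 14 wells above the mean and 9 below. The differences from the other wells were -0.01 for PGK1 (edgeR adjusted p = 0.881), -0.01 for TBP (0.864) and 0.02 for TUBB2A (0.881). The fits called 3.28% of the probes for PGK1, 0% for TBP, with 16 at an unadjusted p under 0.05, and 1.64% for TUBB2A. For TBP, DESeq2 called 0 and limma 3. On the scale of the positive controls, which was not tested here, the mean log2 level of the cell cycle wells differed from that of the others by -0.10 for PGK1, -0.10 for TBP and -0.08 for TUBB2A. For the 9 family differences, the 95% intervals by the normal approximation lay between -0.16 and 0.13.

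**Figure D3:**
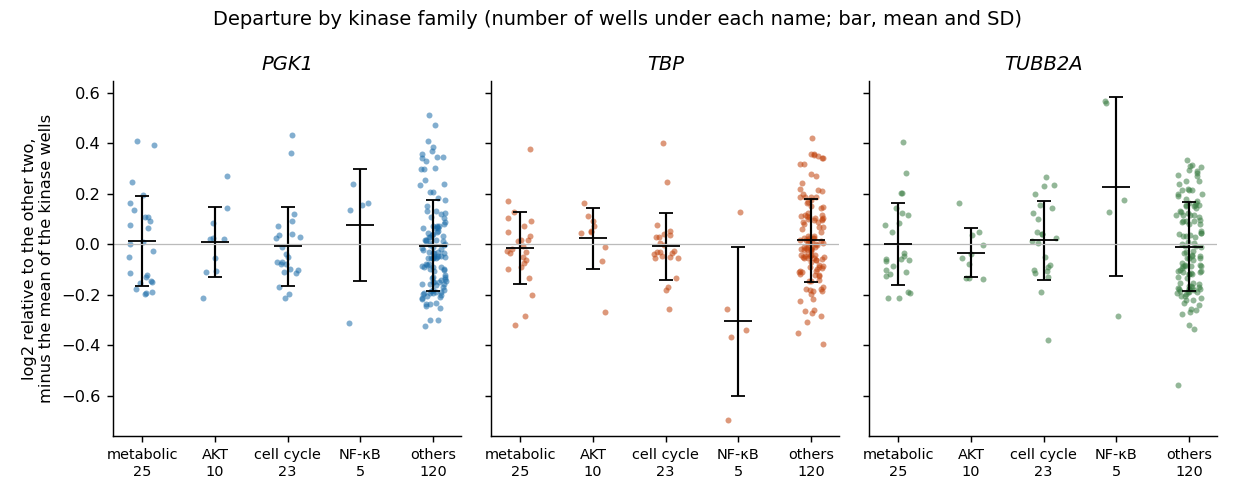
Departure of each normalizer from the other two, in log2 units minus the mean of the kinase wells, by kinase family, with 1 point per well, the mean as a bar and the SD as whiskers. The metabolic, AKT and cell cycle wells center on 0 in each panel, and the 5 NF-kappaB wells are low in TBP, with MAP3K8 as the exception.

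A survey of 16 subfamilies, 48 fits in all with p-values adjusted within each, called a normalizer in 1 subfamily only. It comprised 5 kinases of the NF-kappaB pathway: TBK1, IKBKE, MAP3K14, MAP3K7 and MAP3K8. In the other 15 subfamilies, none of 45 fits called a normalizer, with values from -0.14 to 0.18 and 3 at an unadjusted p under 0.05. In these fits 0.0364% of the probes were called. DESeq2 and limma called no normalizer in these subfamilies either.

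TBP was low relative to the mean of PGK1 and TUBB2A in 4 of the 5 NF-kappaB wells. Its departure was -0.69 in MAP3K14, -0.37 in MAP3K7, -0.34 in IKBKE and -0.26 in TBK1, and 0.13 in MAP3K8. The 4 wells belonged to 4 different blocks. In TBK1, however, TBP was low only relative to TUBB2A, since the log2 ratio of PGK1 to TBP was 0.19 SD below its mean. The difference of TBP between the 5 wells and the other kinase wells was -0.30 (SE of 0.07, edgeR adjusted p = 0.00259), in a fit that called 8.2% of the probes. TUBB2A departed by 0.57 in TBK1, 0.56 in MAP3K14, 0.18 in IKBKE and 0.13 in MAP3K7, and by -0.29 in MAP3K8. Its difference was 0.26 (SE of 0.08, edgeR adjusted p = 0.0235), in a fit that called 4.92%. PGK1 departed by -0.31 in TBK1 and by 0.14 to 0.24 in the other 4, and its difference of 0.08 did not pass the test (SE of 0.08, edgeR adjusted p = 0.645). In that fit 8.2% of the probes were called. The differences of these genes are not independent, since each gene is in the reference of the others.

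The levels of the NF-kappaB wells on the scale of the positive controls were added after these results had been seen. The scaled counts of TBP in the 5 wells were 375 in IKBKE, 376 in TBK1, 367 in MAP3K8, 395 in MAP3K7 and 483 in MAP3K14, around the median of 404 of the kinase wells. Those of TUBB2A were 2996 in MAP3K8, 4704 in IKBKE, 4901 in MAP3K7, 5434 in TBK1 and 8504 in MAP3K14, against a median of 4084. TUBB2A was higher than in the other wells by 0.37 (SE of 0.12, edgeR adjusted p = 0.0460), and TBP differed by -0.07 (SE of 0.11, edgeR adjusted p = 0.923) and PGK1 by 0.22 (SE of 0.13, edgeR adjusted p = 0.748). In this fit 4.92% of the probes were called. TUBB2A was thus the only one of the 3 whose level passed the test, close to the threshold, while TBP passed it only as a ratio to the other two. The test of these levels was not repeated with blocks, with another tool or with a well left out. MAP3K14, with the highest TUBB2A level, lies in block 15. The mean log2 level of TUBB2A was 12.22 in blocks 14 to 17, against 11.93 in blocks 4 to 13.

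The NF-kappaB calls depended on the factor of the lanes and on single wells. With TMM factors in place of the other two, the difference of TBP was -0.0089 (edgeR adjusted p = 0.978). Without MAP3K14 it was -0.21 (edgeR adjusted p = 0.0700), and with B2M added to the other two it was -0.20 (0.274). With the blocks as a covariate it stayed called, at -0.24 (edgeR adjusted p = 0.00238). That of TUBB2A fell to 0.14 with the blocks (edgeR adjusted p = 0.153), and to 0.17 without TBK1 (0.351) or without MAP3K14 (0.212). It was 0.23 with limma (adjusted p = 0.0749) and 0.25 with B2M added (edgeR adjusted p = 0.405), both without a call, and 0.38 with TMM factors, with a call (edgeR adjusted p = 0.00225). Scaled counts of B2M, whose gene NF-kappaB and interferon signaling are known to raise, were 105169 in MAP3K14 and between 24066 and 34650 in the other 4 wells, against a median of 34764.

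The departure of PGK1 followed the B2M level of the well. Over the kinase wells, the ratio of PGK1 to the other two correlated with the B2M level with Pearson's r of 0.69 and Spearman's rho of 0.58 (permutation test, p = 1e-05 for both, the smallest that 100000 draws can give, and adjusted p = 1.3e-05 and 1.5e-05 over the 9 relations computed). Without the 2 wells farthest from the median B2M level, r was 0.68. Within blocks r was 0.62, and it was above 0 in 14 of 16 blocks with at least 6 wells. TUBB2A went the other way, with r of -0.50 and rho of -0.57 (permutation test, adjusted p = 1.3e-05 and 1.5e-05), -0.38 within blocks and below 0 in 12 of 16 blocks. Since the departures of a well cancel in sum, a rise of PGK1 with B2M entails a fall of the others on balance. For TBP, r was -0.20 (permutation test, p = 0.00798, adjusted p = 0.00898), while rho was -0.07 (permutation test, p = 0.359, adjusted p = 0.404). Within blocks r of TBP was -0.29, and it was below 0 in 12 of 16 blocks. Per doubling of B2M, PGK1 relative to the other two was higher by 0.21 on the log2 scale.

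The total endogenous level of the well, taken as a measure of its amount of RNA, gave smaller correlations. It includes B2M and the normalizers themselves. Here r was 0.33 for PGK1 (permutation test, adjusted p = 1.3e-05), -0.36 for TUBB2A (permutation test, adjusted p = 1.3e-05) and 0.04 for TBP (permutation test, adjusted p = 0.599). By this measure, the ratios of PGK1 and TUBB2A were thus not free of a relation to the amount of RNA. Of the 3 genes, PGK1 was therefore the one whose ratio rose with B2M, the housekeeping probe outside the normalization.

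**Figure D4:**
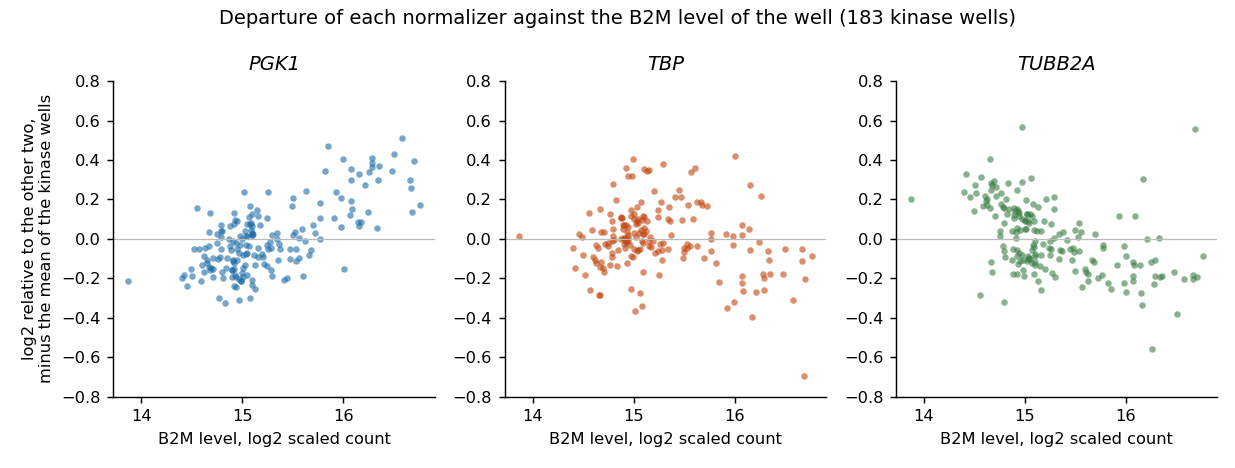
Departure of PGK1, TBP and TUBB2A from the other two, in log2 units minus the mean of the kinase wells, against the log2 level of B2M scaled by the positive controls, with 1 point per kinase well. PGK1 rises with B2M (r = 0.69) and TUBB2A falls (r = -0.50).

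When one normalizer is dropped from the geometric mean of the 3, every normalized value of a well shifts by its departure divided by 3. Over the kinase wells the shift from dropping PGK1 ranged from -0.11 to 0.17 on the log2 scale, that from dropping TBP from -0.23 to 0.14 and that from dropping TUBB2A from -0.19 to 0.19. It was larger than 0.1 in size in 19 wells for PGK1, 18 for TBP and 11 for TUBB2A.

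ADAM12, a metalloprotease gene, in the MAP3K7 well shows what this means for one value. Normalized by all 3 genes, ADAM12 had 478 counts in this well, 12.1-fold over the mean of the controls and 8.51 SD above the mean of the wells. With PGK1 alone the fold was 10.98, with TUBB2A alone 11.2 and with TBP alone 14.5. TBP was low relative to the other two in this well, as given above, and the fold under TBP alone was the highest of the 3. With 2 normalizers the fold was 11.1 for PGK1 and TUBB2A, 12.6 for PGK1 and TBP and 12.8 for TBP and TUBB2A, and with the positive controls only it was 16.99. Across all 8 choices it remained between 7.73 and 8.95 SD above the mean.

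The set of pairs above the limit also changed with the normalizer. Among the 7686 pairs of 42 tissue-restricted genes and the kinase wells, 31 had a Z-score above 2.5 with all 3 normalizers. With PGK1 alone 26 pairs did, of which 17 were among these 31. With TBP alone 38 did, of which 23 were shared, and with TUBB2A alone 36, of which 27 were shared. Without PGK1 there were 37 pairs (29 shared), without TBP 31 (24 shared) and without TUBB2A 31 (25 shared). With the positive controls only there were 26 pairs, of which 11 were shared. Dropping PGK1 thus kept the most pairs of the 3 ways to drop one gene.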

How the data were processed

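RNA was measured on a Nanostring nCounter panel, 1 lane per well. The authors deposited the raw counts of each probe in each lane with no normalization, per the file headers and the study's methods, and no genome build or aligner applies. A table of values that the authors had scaled by PGK1, TBP and TUBB2A was not used here, since those are the genes examined. All 197 lanes have groups from the labels. HK1 and 3 second lanes of a name were left out, the second lanes also as summed lanes in an alternative. PGK1, TBP and TUBB2A were named in the files, and all 3 were matched to RefSeq promoters by symbol.

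Counts were scaled by the geometric mean of the 6 positive controls, and log2 values took a pseudocount of 1. For each normalizer, edgeR (version 4.0.16, quasi-likelihood test, R 4.3.3) was fitted on the counts of all 61 endogenous and housekeeping probes with the geometric mean of the other two as the factor of each lane. P-values were adjusted by Benjamini-Hochberg over the 61 probes, with a threshold of 0.05, and the SE was derived from the F statistic. Correlations were tested with 100000 permutations (scipy 1.17.1). Families were assigned from the kinase names. The computations were tested on simulated data. The members, families and lists were chosen with earlier results of these data known.

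The named wells were the 5 highest and 5 lowest for each normalizer, all AKT wells and MAP3K7 for ADAM12, and the named probes were up to 3 most like each normalizer among those with a median of at least 100 counts. The NF-kappaB wells were named after their values were seen, as were the wells near the limit of 2.5 SD and those beyond it after centering on blocks. Alternatives were DESeq2 (version 1.42.0), limma (version 3.58.1), TMM factors, B2M added, subtraction of the negative controls, a filter at a median of 100 counts, summed lanes, blocks of 12 sample numbers, a replicate block, a permutation test and leaving out each lane of small groups. Those for the NF-kappaB wells, and the comparison of normalizers over the gene and kinase pairs, were added after seeing the data. Counting error is given per lane and covers no other source of error.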

Additional observations from a re-analysis of the deposited data

Results flagged for a closer look

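Within the 5 NF-kappaB wells, PGK1 relative to TBP and TUBB2A was lowest in TBK1, with a log2 value of 2.55 that lay apart from the other 4 wells. The gap to the nearest of them was 0.81 of the range of the group, above the critical value of 0.71 for 5 samples. Of 12 sets of values examined in this way 1 stood out, and chance gives about 1 in 20 independent sets. The 12 sets came only from the lanes of mixed RNA, the AKT wells and the NF-kappaB wells. Sets from the same lanes are not independent, and the NF-kappaB wells were chosen after their values were seen. Each of these wells holds a different kinase and has no replicate.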

How the results depend on the processing

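Of the values recomputed under the alternatives, 220 stayed the same, 17 lost their call, 14 changed sign and 10 moved. For tested differences, staying the same means that direction and side of the threshold were kept. Numbers of wells and SDs had no test, and they stayed the same if close to the main value and moved if not. In SW39, the lower TUBB2A relative to the other two was called under each of the 12 alternatives, whereas the call on PGK1 was lost with TMM factors (0.083) and that on TBP was kept at a smaller value (0.38). Leaving out 1 lane at a time gave 0.43 to 0.50 for PGK1, lost without either SW39 lane, and 0.84 to 0.99 for TBP, lost without either control. A group left with 1 lane is assumed to vary like the other. With a replicate block the differences were 0.47 for PGK1, 0.91 for TBP and -1.38 for TUBB2A, and no call was lost. Same-numbered lanes correlated in their deviations with 0.21 over 61 probes and 2 pairs. With 1 difference per group, this cannot decide whether they share more than a number. The main fit took them as unpaired. On the scale of the positive controls DESeq2 and edgeR with a replicate block each called 12 of 61 probes in SW39, against 20 with edgeR without the block, and without either control, where 0 of 61 were called, the differences kept their size, with 1.07 and 1.11 for PGK1 and 1.37 and 1.41 for TBP.

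None of the following sign changes was a called value. For kinase wells against controls, TBP was 0.0037 with summed lanes and -0.038 to 0.015 without 1 control, PGK1 was -0.042 to 0.020 without 1 control, and TUBB2A was -0.073 with TMM factors. In the metabolic wells PGK1 was -0.032 with TMM factors, TBP was 0.0034 with blocks, and TUBB2A was 0.00027 with limma and 0.00030 in the permutation test. In the AKT wells PGK1 was -0.0066 with B2M added and TUBB2A was 0.024 with TMM factors. In the cell cycle wells PGK1 was 0.025 with TMM factors and 0.037 with B2M added, and TBP was 0.034 and 0.032.

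For the NF-kappaB wells, TBP lost its call with TMM factors (-0.0089), with B2M added (-0.20) and without MAP3K14, in a range of -0.42 to -0.21 over the wells left out. TUBB2A lost its call with limma (0.23), B2M added (0.25) and blocks (0.14), and without TBK1 or MAP3K14, in a range of 0.17 to 0.37. Centered on blocks, 4 wells for PGK1, 4 for TBP and 7 for TUBB2A lay beyond 2.5 SD, and the SD of the log2 ratio was 0.164 for PGK1 to TBP, 0.149 for PGK1 to TUBB2A and 0.145 for TUBB2A to TBP. With the median absolute deviation, 7 wells for PGK1 and 13 for TBP lay beyond the limit, and the SD was 0.151 for PGK1 to TBP and 0.175 for TUBB2A to TBP. The cause of these changes was not tested. TBP had the lowest counts and so the largest counting error of the 3.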
